A study of Mus musculus with 15 samples.

Results

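CD24+ adipocyte progenitors from pups raised on milk with a low n6/n3 ratio of polyunsaturated fatty acids were compared with CD24+ progenitors from pups raised on milk with a high ratio. The comparison holds 8 of the 15 bulk RNA-seq libraries of the series, chosen by the sorted population and by the fatty acid ratio in the sample characteristics. The 4 low-ratio libraries carry the numbers 108, 114, 119 and 133, and the 4 high-ratio libraries carry 1015, 1017, 1018 and 1019. All came from cross-fostered wildtype C57Bl/6 pups, whose subcutaneous adipose tissue was dissociated and sorted by flow cytometry. The protocols give the exposure once as 12 days and once as 10 days. The remaining 7 libraries are CD24- preadipocytes, 4 on low-ratio milk and 3 on high-ratio milk, and are used below where the milk effect is compared between populations. The labels do not say how many pups went into a library. The p-values given here therefore reflect variation among these libraries, which may be technical in part.

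The n6 and n3 families of polyunsaturated fatty acids are made from essential fatty acids of the diet by shared desaturases and elongases, and a suckling pup takes them from milk. Both families give rise to signalling lipids and are ligands of the peroxisome proliferator-activated receptors (PPARs), nuclear receptors that control genes of fatty acid use and, in the case of PPAR gamma, fat cell formation. CD24+ progenitors are the earlier adipocyte precursors of white fat, which lose CD24 as they commit to preadipocytes. The title of the series names lipid oxidation in these cells as its question.

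Markers of the sorted cells were present in all 8 libraries. Cd24a, which encodes the sorted surface protein, had 2305, 1927, 2187 and 2418 normalized counts in the low-ratio libraries and 1836, 1967, 2676 and 2645 in the high-ratio libraries. Pdgfra, the receptor that marks mesenchymal precursors, had 18013, 14145, 17733 and 15561 normalized counts in the low-ratio libraries and 15818, 17877, 14930 and 17483 in the high-ratio libraries. The milk groups overlapped in both genes. Of 10 epithelial and keratinocyte markers 6 had reads, and Krt14, Krt8, Krt15 and Krt1 were at 0 in every library. Their summed normalized counts were 175 to 272 on low-ratio and 202 to 249 on high-ratio milk, most of them from Krt10 (138 to 224 on low-ratio and 182 to 233 on high-ratio milk). Of 7 neutrophil markers 4 had reads, with sums of 5.20 to 40.1 on low-ratio and 1.97 to 28.8 on high-ratio milk, and Mpo, Elane and Camp were at 0 in every library. All 10 adipocyte precursor markers were measured and none had a higher value on low-ratio milk, with a median log2 fold change of −0.05.

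Some features of the libraries differed with milk. The depth, estimated from the spacing of low values, was 34.4 to 39.5 M reads (M, mega) on low-ratio milk and 40.3 to 59.1 M on high-ratio milk. The median SD of a gene over the libraries of a group was 0.321 on low-ratio and 0.252 on high-ratio milk (log2 scale), and the SD was larger on low-ratio milk in 63.4% of genes. The summed normalized counts of 10 endothelial markers ranged from 13182 to 15324 on low-ratio and from 10197 to 14208 on high-ratio milk. A large part of that sum was Tek (5855 to 9446 on low-ratio and 6637 to 10621 on high-ratio milk). The other 9 endothelial markers had a log2 fold change above 0, but not in every low-ratio library. Low-ratio library 133 had the lowest value of all 8 libraries in Flt1 (152), Emcn (76.5) and Cldn5 (265). Sums of 7 erythroid markers ranged from 3216 to 12512 and, on high-ratio milk, from 5793 to 29738. Every library held RNA of both Xist, transcribed from the inactive X chromosome, and Y-linked genes. The sum of 4 Y-linked genes ranged from 1262 to 3595 on low-ratio and from 569 to 1851 on high-ratio milk, and Xist ranged from 575 to 3065 and, on high-ratio milk, from 1703 to 5917. In bulk samples fewer cells of a type and less RNA per cell cannot be told apart.

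No gene passed the threshold between the milks in progenitors. Differences were tested with limma over 15973 genes with a mean of at least 10 normalized counts, with Benjamini-Hochberg adjustment, and the share called was 0% in either direction. The smallest adjusted p was 0.397. An unadjusted p under 0.05 was reached by 1099 genes (6.88%), of which 602 had higher values on low-ratio milk (3.77% of those tested) and 497 lower values (3.11%). All 4 low-ratio libraries exceeded all 4 high-ratio libraries in 324 genes (2.03%), and the reverse held in 322 genes (2.02%). The values of 49.5% of genes were higher on low-ratio milk, and the median log2 fold change over all genes was below 0.01 in size. The median size of a fold change was 0.18 on the log2 scale, against a median standard error of 0.22. For a single gene, 4 libraries against 4 allow an exact permutation p no smaller than 0.0286. The genes named below are therefore described by their values, and none of them is a call. Counts of list members at an unadjusted p under 0.05 are to be read against the shares of all genes, 3.77% higher and 3.11% lower.

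**Figure D1:**
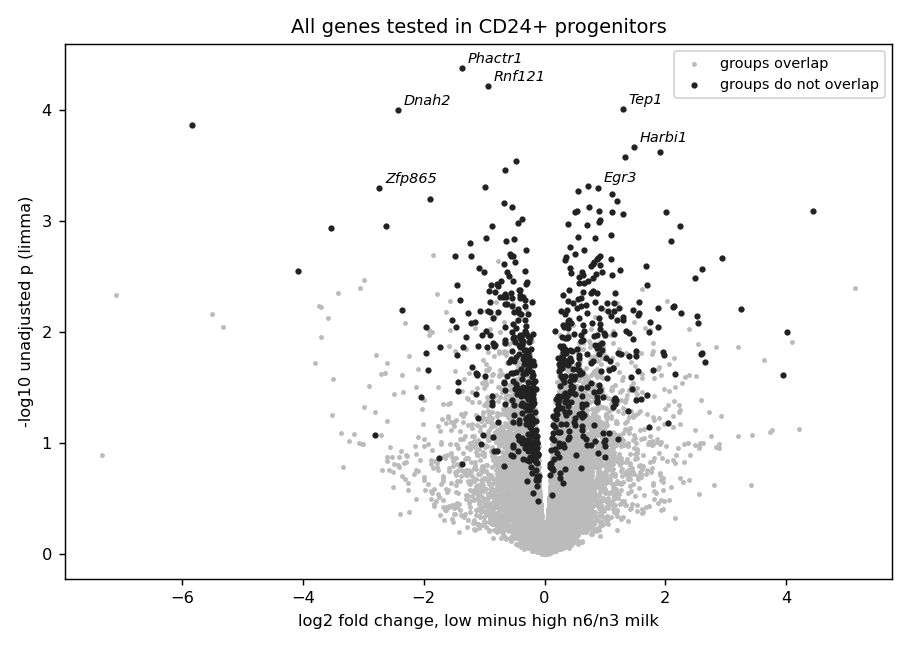
Fold change (log2, low minus high n6/n3 milk; horizontal axis) against −log10 of limma's unadjusted p (vertical axis) for each of the 15973 genes tested in progenitors. Black points are the 646 genes (4.04%) whose milk groups do not overlap, grey points the others; the 2 sides are nearly even, with 324 black points on the right and 322 on the left.

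Among the 12 genes with the smallest p that were higher on low-ratio milk, the 11 described here were Tep1, Harbi1, Crybg3, Egr3, Arhgap32, Gcfc2, Eno2, Atp7a, Scarb1, Arid3b and Gfra2. Tep1 (ENSMUSG00000006281, chr14:50824059-50870560, minus strand, GRCm38) encodes a protein of telomerase and vault ribonucleoprotein particles. It had 1788, 1033, 1120 and 1094 normalized counts on low-ratio milk, against 565, 547, 538 and 369 on high-ratio milk. The groups lay far apart, with library 108 the highest and library 1019 the lowest. The log2 fold change was 1.30 ± 0.20 (SE, n = 4 each; limma adjusted p = 0.397, exact permutation p = 0.0286). Egr3, an immediate early transcription factor gene, had 1415, 1288, 1829 and 1142 normalized counts on low-ratio milk and 586, 824, 780 and 866 on high-ratio milk (0.88 ± 0.17 SE). In both genes the lowest low-ratio library stood above the highest high-ratio library.

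Scarb1, another gene of that group, encodes the scavenger receptor that takes up cholesterol from high-density lipoprotein. Its values were 1133, 1168, 1163 and 1134 normalized counts on low-ratio milk, close together, against 948, 713, 759 and 776 on high-ratio milk (0.53 ± 0.11 SE). Atp7a, the copper-transporting ATPase gene, averaged 810 ± 134 (SD, n = 4) normalized counts on low-ratio and 484 ± 48.2 (SD, n = 4) on high-ratio milk. Eno2, which encodes an enolase of glycolysis, had 252, 306, 387 and 186 normalized counts on low-ratio milk and 140, 103, 110 and 125 on high-ratio milk (1.20 ± 0.24 SE). Arid3b, a DNA-binding protein gene, had the widest difference of the 11, with 110 ± 59.8 (SD) on low-ratio and 24.9 ± 9.42 (SD) normalized counts on high-ratio milk (2.02 ± 0.42 SE), at a low level.

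The 12 genes with the smallest p among those lower on low-ratio milk were Phactr1, Rnf121, Dnah2, Kazn, Rgl1, Zc3h12b, Zfp865, Atp6v0a2, Tjp1, Akr1c14, Stk38 and Ubfd1. Phactr1 (ENSMUSG00000054728, chr13:42680623-43138526, plus strand, GRCm38), a regulator of actin and of protein phosphatase 1, had 869, 675, 648 and 853 normalized counts on low-ratio milk. In the high-ratio libraries it had 2190, 2256, 2213 and 1298. Library 1019 was thus the one high-ratio library nearer to the low-ratio ones. The log2 fold change of Phactr1 was −1.36 ± 0.19 (SE, n = 4 each; limma adjusted p = 0.397, exact permutation p = 0.0286). Without library 1019 it was −1.56, with a limma adjusted p of 0.012. Over the 17 alternatives the adjusted p of Phactr1 ranged from 0.012 to 0.827. Rnf121 (ENSMUSG00000070426, chr7:102019137-102065469, minus strand), which encodes a RING-type ubiquitin ligase of the endoplasmic reticulum and Golgi, had 612, 468, 436 and 431 normalized counts on low-ratio milk and 999, 936, 853 and 898 on high-ratio milk. The difference was −0.93 ± 0.14 (SE) on the log2 scale.

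Dnah2, an axonemal dynein heavy chain gene, had 21.3, 53.5, 26.7 and 70.6 normalized counts on low-ratio milk and 205, 282, 181 and 187 on high-ratio milk (−2.42 ± 0.38 SE). Zfp865, a zinc finger protein gene, had 155, 166, 948 and 361 on low-ratio milk against 2879, 1415, 1529 and 2791 on high-ratio milk, a large difference with a wide spread (−2.73 ± 0.53 SE). Atp6v0a2, a subunit of the proton pump of acidic vesicles, averaged 712 ± 313 (SD) normalized counts on low-ratio and 2626 ± 1116 (SD) on high-ratio milk. Rgl1, an activator of the small GTPase Ral, had 4080, 4306, 5072 and 6038 normalized counts on low-ratio milk and 6954, 8136, 7683 and 7712 on high-ratio milk (−0.66 ± 0.12 SE). Tjp1, which encodes the junction scaffold ZO-1, averaged 2483 ± 307 (SD) on low-ratio and 3966 ± 717 (SD) normalized counts on high-ratio milk. Akr1c14, an aldo-keto reductase gene of steroid metabolism, averaged 5891 ± 686 (SD) and, on high-ratio milk, 8559 ± 969 (SD).

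**Figure D2:**
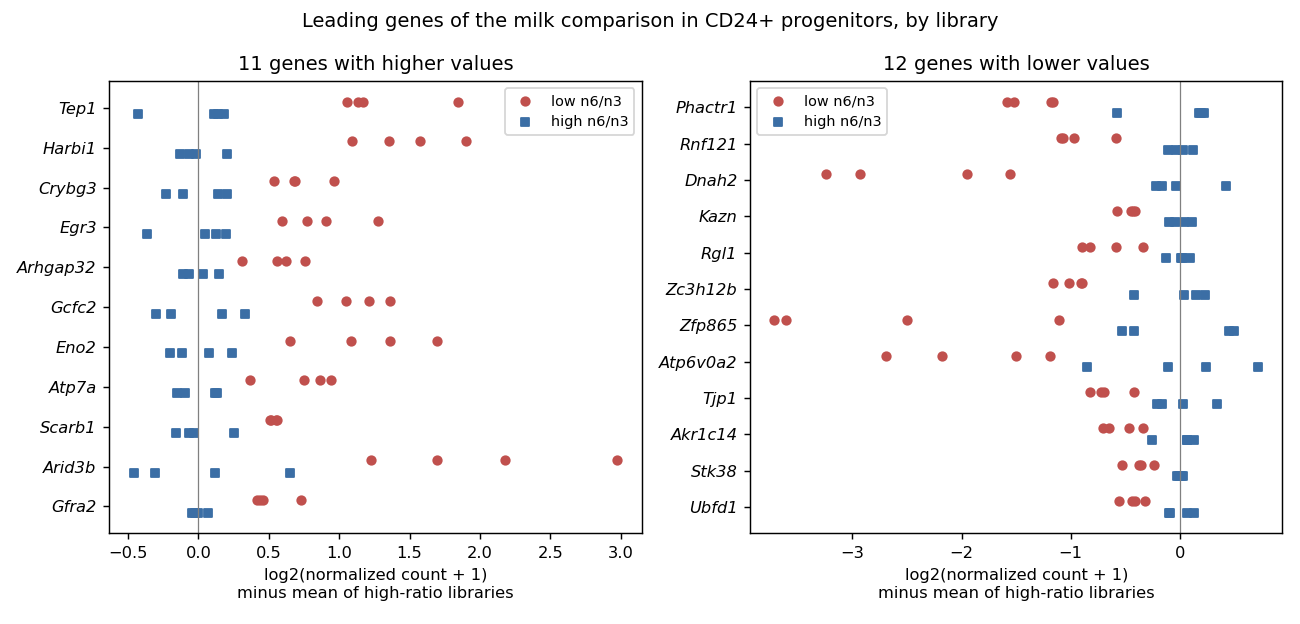
Values of 23 leading genes in each of the 8 progenitor libraries, as log2(normalized count + 1) minus the mean of the high-ratio libraries (horizontal axis). Red circles are low-ratio and blue squares high-ratio libraries. In each row the colours do not overlap, which is how groups looked in 4.04% of all genes. Zfp865, Dnah2 and Arid3b have the largest fold changes of the 23.

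Nuclear receptors and their coregulators gave 4 genes at an unadjusted p under 0.05 among 23 tested (17.4%, against 6.88% of all genes), 2 higher and 2 lower. COUP-TFs are nuclear receptors that bind repeats of the same half-site as PPARs and retinoid X receptors, and both COUP-TF genes were among the 4. Nr2f2 (ENSMUSG00000030551, chr7:70351944-70366735, minus strand), which encodes COUP-TFII, had 978, 1110, 1101 and 742 normalized counts on low-ratio milk and 714, 592, 556 and 684 on high-ratio milk. The groups did not overlap, although library 133 came close to library 1015. The log2 fold change was 0.62 ± 0.16 (SE, limma adjusted p = 0.566). Its paralog Nr2f1, which encodes COUP-TFI, differed the other way, with 163, 141, 193 and 205 on low-ratio and 224, 306, 318 and 286 normalized counts on high-ratio milk (−0.69 ± 0.19 SE). Pprc1, a coactivator related to PGC-1 alpha, was higher (0.37 ± 0.13 SE). Tfam, which packages and transcribes mitochondrial DNA, was lower in every low-ratio library than in any high-ratio library (−0.35 ± 0.14 SE). Pparg, the master regulator of fat cell formation, averaged 390 ± 132 (SD) on low-ratio and 408 ± 174 (SD) normalized counts on high-ratio milk, with overlapping groups. Ppargc1a, which encodes PGC-1 alpha, had 6.46, 2.81, 53.2 and 82.8 normalized counts on low-ratio milk and 13.8, 5.39, 2.45 and 4.15 on high-ratio milk, so that 2 low-ratio libraries (119 and 133) stood high and the other 2 lay within the high-ratio range.

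The 250 bases before the annotated start of 4 lipid-related genes are shown because the receptors above bind the half-site AGGTCA (RefSeq, GRCm38.p6). The search took both strands, so AGGTCA or TGACCT, with no overlap with another motif. A match is a description of letters in this window. Capitals mark a match, and over all promoters 14.0% of such windows held one (10.6% for genes tested in progenitors).
Nr2f2, chr7:70366747-70366996, minus strand: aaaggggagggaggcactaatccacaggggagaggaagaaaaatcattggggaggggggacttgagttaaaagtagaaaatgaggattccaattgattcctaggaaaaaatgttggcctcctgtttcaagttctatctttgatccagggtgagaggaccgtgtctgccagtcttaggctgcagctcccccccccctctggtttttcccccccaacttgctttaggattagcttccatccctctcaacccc
Cpt1a, chr19:3323051-3323300, plus strand: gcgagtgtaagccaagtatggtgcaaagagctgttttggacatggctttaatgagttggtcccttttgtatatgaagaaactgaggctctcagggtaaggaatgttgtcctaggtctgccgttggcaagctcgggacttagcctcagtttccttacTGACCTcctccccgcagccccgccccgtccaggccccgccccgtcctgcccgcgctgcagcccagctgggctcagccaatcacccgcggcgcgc
Plin2, chr4:86670060-86670309, minus strand: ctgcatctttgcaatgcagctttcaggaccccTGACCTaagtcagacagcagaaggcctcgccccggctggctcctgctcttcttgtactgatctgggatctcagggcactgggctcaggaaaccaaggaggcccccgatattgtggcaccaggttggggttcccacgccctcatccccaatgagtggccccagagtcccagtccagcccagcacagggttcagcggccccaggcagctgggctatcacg
Fads2, chr19:10101504-10101753, minus strand: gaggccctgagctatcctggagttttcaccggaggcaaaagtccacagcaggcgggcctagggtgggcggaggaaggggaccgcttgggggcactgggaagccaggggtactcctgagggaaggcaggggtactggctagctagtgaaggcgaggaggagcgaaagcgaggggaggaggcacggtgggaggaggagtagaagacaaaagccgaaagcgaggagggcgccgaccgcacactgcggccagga
Cpt1a and Plin2 hold 1 match each, and the windows of Nr2f2 and Fads2 hold 0. Among windows of mitochondrial fatty acid oxidation genes 5 of 19 held a match (26.3%), among those of the receptor and coregulator genes 4 of 30 (13.3%) and among those of polyunsaturated fatty acid synthesis genes 2 of 13 (15.4%). The Cpt1a window with its match belongs to a gene whose RNA hardly differed between milks, and the Plin2 window to one that was lower on low-ratio milk, as given next.

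Mitochondrial fatty acid oxidation, which shortens fatty acids to acetyl-CoA, differed little. Of 24 genes tested, 8 had higher and 16 lower values on low-ratio milk, with a median log2 fold change of −0.07. An unadjusted p under 0.05 was reached by 2 of them, both lower (8.33%, against 6.88% of all genes in either direction). Cpt1a, which admits long-chain fatty acids to mitochondria, had 4146, 3884, 3935 and 3696 normalized counts on low-ratio milk and 3967, 4529, 3298 and 3530 on high-ratio milk. The groups overlapped fully (0.04 ± 0.10 SE). Etfa, the electron transfer flavoprotein subunit that takes electrons from acyl-CoA dehydrogenases, had 1471, 1549, 2184 and 2156 on low-ratio milk and 2067, 2601, 2792 and 2243 on high-ratio milk (−0.41 ± 0.16 SE). Slc22a5, the carnitine transporter gene, had 251, 237, 200 and 426 on low-ratio and 372, 353, 489 and 383 normalized counts on high-ratio milk (−0.57 ± 0.24 SE). Library 133 lay among the high-ratio libraries in that gene. Of 18 peroxisomal oxidation genes 5 had higher and 13 lower values, with none at an unadjusted p under 0.05. Among them Acot4, a peroxisomal thioesterase gene, had 210 normalized counts in library 108 and between 11.3 and 38.5 in the other low-ratio libraries, against 7.90 to 13.9 on high-ratio milk.

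Among 17 PPAR target genes, 2 were higher and 2 lower at an unadjusted p under 0.05 (23.5%, against 6.88% of all genes), and the median was 0.02. Ucp2, an uncoupling protein gene of the inner mitochondrial membrane, had 372, 494, 564 and 714 normalized counts on low-ratio milk and 378, 344, 214 and 316 on high-ratio milk (0.77 ± 0.24 SE). The groups overlapped by 1 library, since 108 lay just below 1015. Aqp7, the glycerol channel gene of fat cells, was higher as well (1.13 ± 0.37 SE). The lipid droplet coat gene Plin2 had 851, 763, 1025 and 785 normalized counts on low-ratio milk and 1076, 1199, 1076 and 981 on high-ratio milk (−0.35 ± 0.12 SE). Plin4, another droplet coat gene, averaged 78.6 ± 44.9 (SD) on low-ratio and 139 ± 28.7 (SD) on high-ratio milk, while Plin1 was 96.2 ± 23.4 (SD) on low-ratio and 59.7 ± 43.3 (SD) normalized counts on high-ratio milk. Of 21 triglyceride storage and lipolysis genes 15 had lower values, and Plin2 and Plin4 were the 2 at an unadjusted p under 0.05 (9.52%).

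**Figure D3:**
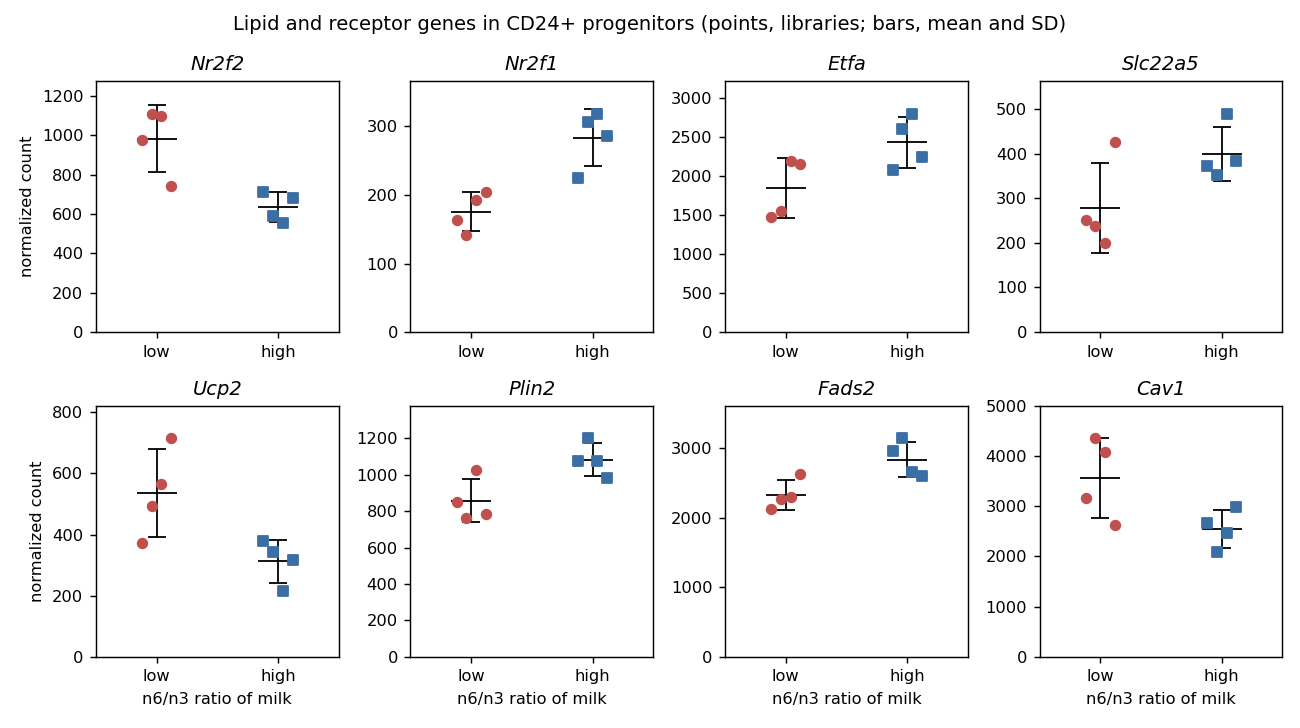
Normalized counts (vertical axes, each from 0) of 8 receptor and lipid genes in the progenitor libraries, low-ratio milk on the left and high-ratio milk on the right of each panel. Points are libraries, bars the mean and SD of 4. Nr2f2 and Nr2f1 separate the milks in opposite directions, while in the other 6 genes at least 1 library of a group lies within the range of the other.

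Genes of polyunsaturated fatty acid synthesis had a median log2 fold change of −0.03, with 7 of 15 at higher and 8 at lower values on low-ratio milk. Fads2, the delta-6 desaturase that starts the conversion of essential fatty acids in both families, had 2122, 2263, 2289 and 2621 normalized counts on low-ratio milk and 2950, 3136, 2654 and 2594 on high-ratio milk. Library 133 lay just above library 1019. The log2 fold change was −0.29 ± 0.10 (SE, limma adjusted p = 0.656). It was the 1 gene of the 15 at an unadjusted p under 0.05. The delta-5 desaturase gene Fads1 (−0.03 ± 0.15 SE) and the elongase gene Elovl5 (0.17 ± 0.11 SE) had overlapping groups. De novo lipogenesis gave 0 of 14 genes, with Fasn, the fatty acid synthase gene, at 5451 ± 451 (SD) on low-ratio and 4981 ± 377 (SD) normalized counts on high-ratio milk.

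Of 21 genes of fatty acid uptake and binding 17 had higher values on low-ratio milk, with a median log2 fold change of 0.22, against 49.5% of all genes with higher values and a median near 0. Of the 21, 3 had an unadjusted p under 0.05, all higher (14.3%, against 3.77% of all genes). Acsl4, an acyl-CoA synthetase that prefers arachidonic acid, had 957, 995, 1909 and 583 normalized counts on low-ratio milk and 652, 391, 651 and 437 on high-ratio milk (0.97 ± 0.33 SE). Cav1, the caveolin gene, had 3157, 4348, 4071 and 2631 on low-ratio milk and 2662, 2085, 2461 and 2989 on high-ratio milk (0.46 ± 0.17 SE). Gpihbp1, the endothelial anchor of lipoprotein lipase, was higher (0.69 ± 0.26 SE), while the lipase gene Lpl itself averaged 20473 ± 707 (SD) on low-ratio and 22876 ± 2106 (SD) normalized counts on high-ratio milk. Endothelial cells also express Cav1 and Gpihbp1. Of 10 endothelial markers 9 had a log2 fold change above 0, with a median of 0.45. An unadjusted p under 0.05 was reached by 4, all higher (40%, against 3.77% of all genes). Cdh5, the cadherin of endothelial junctions, had 1980, 3339, 2120 and 1143 normalized counts on low-ratio milk and 1503, 1109, 871 and 998 on high-ratio milk. In 1 of the 10, Esam, which is named here after its values were seen, all low-ratio libraries exceeded all high-ratio libraries. The part of endothelial RNA in the differences of Cav1 and Gpihbp1 was not tested. Prostanoid and lipoxygenase pathways make signalling lipids from polyunsaturated fatty acids. Among 24 of their genes 1 was higher and 2 lower at an unadjusted p under 0.05 (12.5%, against 6.88% of all genes). Hpgd, which degrades prostaglandins, had 2623, 2718, 1696 and 2357 normalized counts on low-ratio milk and 2741, 2738, 3226 and 2974 on high-ratio milk. Ephx2, the soluble epoxide hydrolase, was also lower in every low-ratio library (−0.61 ± 0.23 SE), and Alox12 was higher in every one (1.27 ± 0.43 SE).

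The genes encoded in mitochondrial DNA, which give 13 subunits of the respiratory chain, stood highest of the 35 gene lists by median. Of the 13, 12 were at higher values on low-ratio milk, with a median log2 fold change of 0.39, and 8 had an unadjusted p under 0.05, all higher (against 3.77% of all genes). All low-ratio libraries exceeded all high-ratio libraries in 5 of them, mt-Nd1, mt-Nd5, mt-Nd6, mt-Nd4l and mt-Atp8 (against 2.03% of all genes). The complex I gene mt-Nd5 had 70584, 75875, 80767 and 68205 normalized counts on low-ratio milk and 64493, 55896, 53178 and 51759 on high-ratio milk. The gap was 0.39 ± 0.09 (SE, limma adjusted p = 0.479). The ATP synthase gene mt-Atp8 had 97083, 104307, 97734 and 82698 on low-ratio milk and 79540, 69477, 67800 and 52770 on high-ratio milk (0.51 ± 0.12 SE). For mt-Nd6, which lies on the other strand, the difference was 0.78 ± 0.19 (SE). With the sex-linked covariate 5 of the 13 had an unadjusted p under 0.05 and the median was 0.38, and with the trend on GC content and length removed 6 did and the median was 0.34. The genes of mitochondrial DNA are read from long shared transcripts and some of them overlap, among them mt-Atp8 and mt-Nd4l, so the 13 are not independent. Values of mt-Co2 were listed at 0 in 5 of the 8 libraries, although its neighbours were abundant, and its fold change is not given. It remains among the 13 in the counts and medians of this list, and among the 12 at higher values.

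The nuclear genes of the respiratory chain did not follow the same direction. Of 36 complex I subunit genes 25 had lower values on low-ratio milk, with a median of −0.12, and 3 were lower at an unadjusted p under 0.05. They were Ndufa10 (−0.46 ± 0.18 SE), Ndufab1 (−0.41 ± 0.17 SE) and Ndufb2 (−0.37 ± 0.16 SE). Of 40 genes of complexes II to V, 20 had higher and 20 lower values, with 1 in each direction at an unadjusted p under 0.05, Atp5g3 and Atp5j2. Cytosolic ribosomal protein genes had a median of 0.01 over 75, and 5 were higher at an unadjusted p under 0.05. Near-identical copies of ribosomal protein genes exist, and reads can be split among them. Rpl5 shows a wide spread, with 4835, 2503, 744 and 648 normalized counts on low-ratio milk and 560 to 672 on high-ratio milk. The difference between mitochondrial and nuclear subunit genes was not tested.

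**Figure D4:**
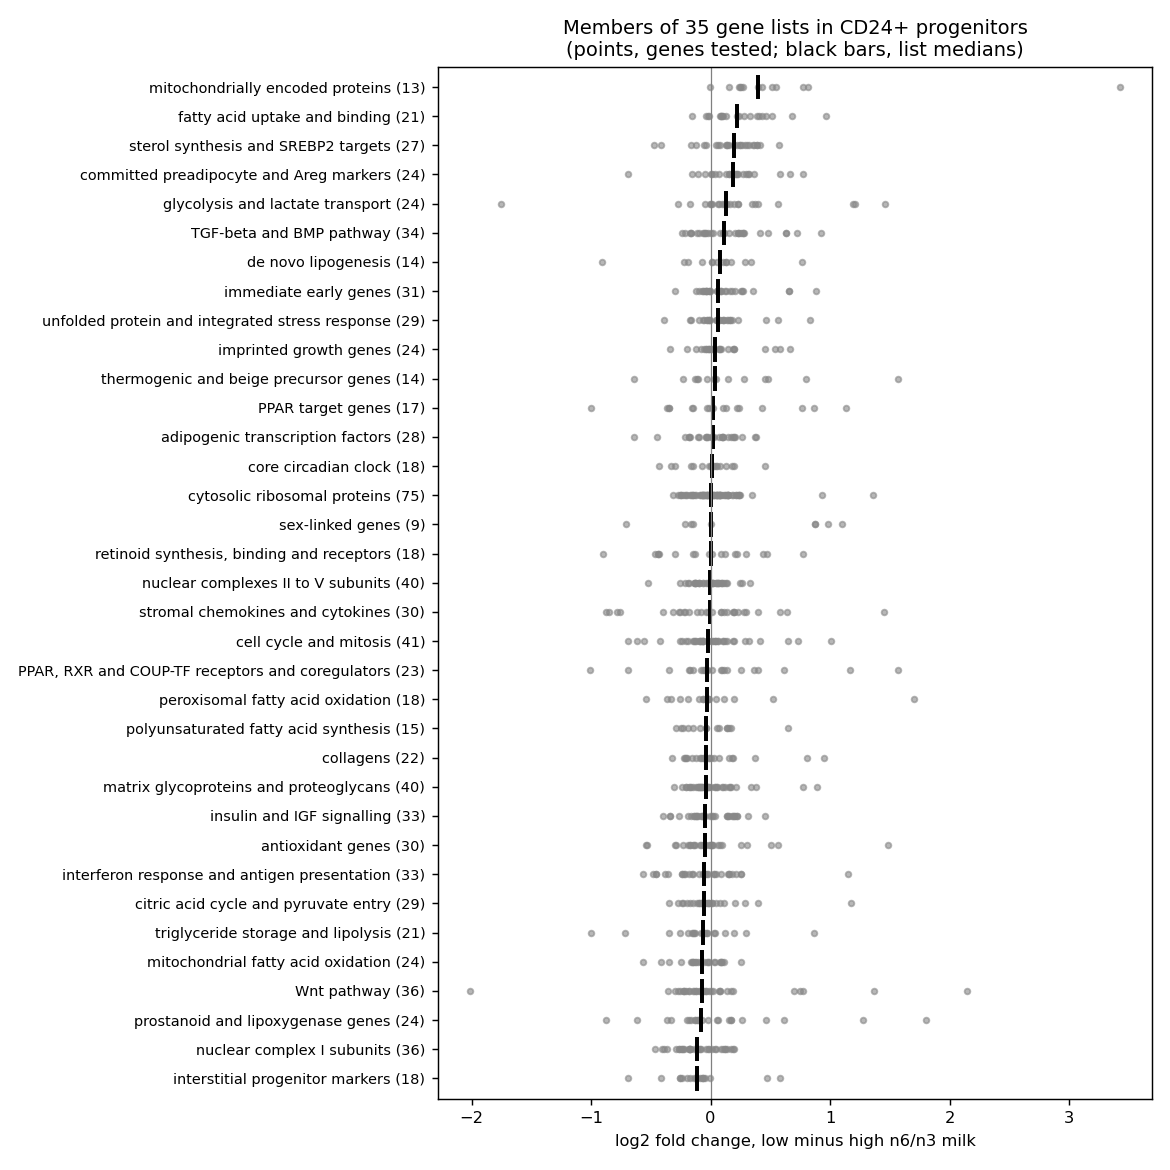
Log2 fold change (low minus high n6/n3 milk, horizontal axis) of the members of 35 gene lists in progenitors, with the number tested in brackets. Points are genes and black bars list medians. Medians run from −0.12 (interstitial progenitor markers and complex I subunits) to 0.39 (mitochondrially encoded proteins), and single members spread far beyond the medians.

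Markers of the stages of adipocyte precursors are given by list, and the difference between the lists was not tested. Interstitial progenitor markers, genes of the earliest stromal precursors, had lower values on low-ratio milk in 16 of 18, with a median of −0.12, and 2 were higher and 3 lower at an unadjusted p under 0.05 (against 6.88% of all genes in either direction). Anxa3, an annexin gene, had 3902, 4630, 3163 and 4533 normalized counts on low-ratio milk and 4634, 5490, 5946 and 5402 on high-ratio milk (−0.41 ± 0.13 SE). Wnt2, a secreted Wnt ligand gene, was lower (−0.26 ± 0.10 SE). Creb5, a transcription factor gene of the same list, had 7326, 6958, 4834 and 5971 on low-ratio milk and 4412, 4741, 3690 and 5088 on high-ratio milk (0.48 ± 0.14 SE). Markers of committed preadipocytes and of the adipogenesis-regulatory stroma had higher values in 19 of 24, with a median of 0.19. The 1 member at an unadjusted p under 0.05 was the chemokine gene Cxcl14, with 229, 234, 358 and 365 normalized counts on low-ratio and 229, 198, 182 and 169 on high-ratio milk (0.58 ± 0.21 SE).

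Transcription factors of adipogenesis were close to 0 as a list, with a median of 0.02 over 28 genes. Klf5, an early activator of the program, was the 1 with an unadjusted p under 0.05 (0.38 ± 0.17 SE). Zfp521, a factor that restrains fat cell formation, had 4179 ± 425 (SD) on low-ratio and 4702 ± 140 (SD) normalized counts on high-ratio milk. Among 14 thermogenic and beige precursor genes none had an unadjusted p under 0.05, and Bmp4 averaged 1721 ± 561 (SD) on low-ratio and 1200 ± 212 (SD) on high-ratio milk. Of 24 imprinted growth genes 1 had an unadjusted p under 0.05, the noncoding RNA Kcnq1ot1 (0.58 ± 0.20 SE). It overlaps Kcnq1 on the other strand, and reads of the pair cannot be told apart where strand was not used. Dlk1, an inhibitor of adipogenesis, spread widely, with 14995, 13283, 48175 and 24189 normalized counts on low-ratio milk and 22159, 14287, 9001 and 12753 on high-ratio milk. Insulin and IGF signalling gave 0 of 33 genes at an unadjusted p under 0.05.

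Collagen and matrix genes included some of the most abundant transcripts. Col1a1, Col1a2 and Col3a1, the chains of type I and III collagen, together took 24.1% to 27.0% of normalized counts on low-ratio milk and 27.2% to 27.8% on high-ratio milk. Col1a1 had 4072990, 3901270, 4093560 and 4643360 normalized counts on low-ratio milk and 4766390, 4838460, 4923930 and 4673420 on high-ratio milk. The groups did not overlap, with library 133 close to library 1019 (−0.20 ± 0.06 SE, limma adjusted p = 0.591). Col3a1 was lower too (−0.22 ± 0.08 SE). Of 22 collagen genes 1 was higher, Col28a1, and 4 were lower at an unadjusted p under 0.05. Of 40 matrix glycoprotein and proteoglycan genes 3 were higher and 4 lower at that p. Over all genes 3.77% were higher and 3.11% lower at that p. Ogn, the osteoglycin gene, had 12718, 13203, 12319 and 13946 on low-ratio milk and 14160, 16645, 17477 and 16434 on high-ratio milk. Podn, the podocan gene, had 3471, 3117, 3860 and 3165 on low-ratio milk and 2882, 2874, 2561 and 2156 on high-ratio milk. Hspg2, which encodes the basement membrane proteoglycan perlecan, averaged 135425 ± 4363 (SD) on low-ratio and 120720 ± 3343 (SD) normalized counts on high-ratio milk. Bmp1, the protease that trims procollagen, was lower (−0.24 ± 0.08 SE), and Tgfb3, a TGF-beta ligand gene, was higher in every low-ratio library (0.27 ± 0.10 SE).

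Of 24 genes of glycolysis and lactate transport 19 had higher values on low-ratio milk, with a median of 0.13. Of the 24, 6 had an unadjusted p under 0.05, all higher (against 3.77% of all genes). Slc2a1, the basal glucose transporter gene, had 818, 704, 868 and 750 normalized counts on low-ratio milk and 347, 546, 718 and 571 on high-ratio milk. Pfkfb1, a regulator of glycolytic flux, had 28.6 to 49.9 on low-ratio and 8.48 to 22.2 on high-ratio milk. Eno2 is given above. Sterol synthesis genes had higher values in 21 of 27, with a median of 0.19. Mvd, an enzyme of the mevalonate pathway, was higher in every low-ratio library (0.41 ± 0.17 SE) and Insig2, an inhibitor of sterol synthesis, was lower (−0.47 ± 0.21 SE). Among 30 antioxidant genes 3 were higher at an unadjusted p under 0.05, the thioredoxin reductase gene Txnrd1 (0.31 ± 0.10 SE), the glutathione reductase gene Gsr (0.51 ± 0.20 SE) and Gclm, a subunit of the glutathione synthesis enzyme (0.57 ± 0.24 SE).

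For lists of signalling and growth genes, members are counted at an unadjusted p under 0.05, which 3.77% of all genes reached with higher and 3.11% with lower values. Of 31 immediate early genes 2 were higher at that p, Egr3 and Fosl1, and 1 was lower at that p. That was Fos, with 56450, 62801, 59103 and 68791 normalized counts on low-ratio milk and 68171, 85515, 74843 and 76044 on high-ratio milk (−0.30 ± 0.09 SE). Tissue dissociation is also known to induce these genes. Of 41 cell cycle genes 3 were higher at that p, with 19 of the 41 at higher values. They were the cyclin gene Ccne1 (0.73 ± 0.24 SE), the spindle checkpoint gene Bub1b (1.01 ± 0.35 SE) and the cell cycle inhibitor gene Cdkn1a (0.42 ± 0.16 SE). Of 36 Wnt pathway genes 1 was higher and 3 were lower at that p, with the receptor gene Fzd1 at 4905, 4770, 4280 and 5069 normalized counts on low-ratio milk and 5563, 5656, 5360 and 5569 on high-ratio milk. Retinoid genes gave 2 of 18 that were lower at that p. The receptor gene Rarb had 175, 149, 202 and 236 normalized counts on low-ratio milk and 240, 348, 530 and 342 on high-ratio milk (−0.90 ± 0.25 SE), and Aldh1a3, which makes retinoic acid, was lower (−0.46 ± 0.14 SE). Stress response genes gave 3 of 29 that were higher at that p, Calr, Pdia6 and Slc7a11. Interferon and antigen presentation genes gave 1 of 33 in each direction at that p, Ifitm1 and Ifi27. The circadian clock gave 0 of 18 at that p.

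The milk effect in progenitors was then compared with that in CD24- preadipocytes by an interaction over all 15 libraries. For the 4 low-ratio preadipocyte libraries the source name gives the high ratio and the characteristics the low ratio, and the characteristics were used. Of 15354 genes tested in both populations, the effect differed in 350 (limma, adjusted p under 0.05). It lay above the preadipocyte effect in 254 (1.65%) and below it in 96 (0.625%). Of the 350, 98 had an unadjusted p under 0.05 in progenitors and 233 were called in preadipocytes. The effect was larger in size in progenitors in 21. With 1 of the 15 libraries left out the count ranged from 70, without preadipocyte high-ratio library 1015, to 849, without preadipocyte high-ratio library 1019. It was 148 with the trend on GC content and length removed, an alternative added after the data were seen. The lowest count, 43, came with the library number as a replicate block. Over the genes with an unadjusted p under 0.05 in progenitors, 538 of 1067 (50.4%) had the same sign in preadipocytes, against 7802 of 15354 (50.8%) over all genes.

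Of these 23 leading progenitor genes 6 were called for a different milk effect in preadipocytes in the main fit, against 350 of 15354 genes tested in both populations. They had been named for their difference in progenitors, which enters this comparison. Dnah2 was −2.42 ± 0.38 (SE) in progenitors and 2.44 in preadipocytes, a difference of −4.86 ± 0.69 (SE, limma adjusted p = 0.00498). Tep1 was 1.30 in progenitors and −0.46 in preadipocytes (difference 1.76 ± 0.34 SE, adjusted p = 0.0197). Rgl1 was −0.66 in progenitors and 0.39 in preadipocytes (−1.05 ± 0.17 SE, adjusted p = 0.0102). Zc3h12b, a gene of an RNA-binding zinc finger family, was −0.99 in progenitors and 0.70 in preadipocytes. The kinase gene Stk38 was −0.37 and, in preadipocytes, 0.51, and Kazn, a gene of cell junctions, was −0.47 and, in preadipocytes, 0.92. The differences of Rgl1, Dnah2 and Stk38 were called without any 1 of the 15 libraries, while that of Tep1 was lost without preadipocyte high-ratio library 1015 (adjusted p = 0.06), that of Zc3h12b without 1015 (adjusted p = 0.0587) or 1017 (adjusted p = 0.0537), and that of Kazn without 12 of the 15 and with the trend on GC content and length removed (adjusted p = 0.0849). Over the 19 alternatives, adjusted p ranged from 0.00214 to 0.034 for Rgl1, which stayed under 0.05 in each. It ranged from 0.00313 to 0.0571 for Dnah2, from 0.00428 to 0.103 for Stk38, from 0.0132 to 0.0856 for Tep1, from 0.00155 to 0.0646 for Zc3h12b and from 0.0162 to 0.0874 for Kazn. Fads2, at −0.29 in progenitors, rose in preadipocytes (0.58), a difference of −0.86 ± 0.15 (SE, adjusted p = 0.0144, with a range of 0.00557 to 0.0553 over the alternatives). For Dnah2, Stk38, Tep1, Zc3h12b, Kazn and Fads2 the highest adjusted p was that with the library number as a replicate block. None of them was called in that fit, while Rgl1 was (adjusted p = 0.0222).

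Mitochondrially encoded genes had medians of opposite sign in the populations. Their median log2 fold change was 0.39 in progenitors and −1.01 in preadipocytes. In preadipocytes 10 of the 13 were called lower on low-ratio milk (limma, adjusted p under 0.05), against 2.35% of all genes tested there. The interaction called 10 of the 13, all with the progenitor effect above (against 1.65% of all genes), and between 8 and 11 when any 1 library was left out. The differences were 1.14 ± 0.14 (SE, adjusted p = 0.00231) for mt-Nd5, 1.95 ± 0.23 (SE, adjusted p = 0.00225) for mt-Atp8 and 2.12 ± 0.27 (SE, adjusted p = 0.00266) for mt-Nd6. With the trend on GC content and length removed 2 of the 13 were called, mt-Co1 and mt-Cytb. The differences were then smaller, 0.53 for mt-Nd5 (adjusted p = 0.127), 0.59 for mt-Atp8 (adjusted p = 0.142) and 1.06 for mt-Nd6 (adjusted p = 0.055), the highest p of each over its alternatives. Across genes, which are not independent replicates, the Spearman coefficient with GC content was 0.00722 for the progenitor fold change, 0.263 for the preadipocyte fold change and −0.217 for the difference between them. The interaction also called 21 of 75 ribosomal protein genes with the progenitor effect above, Rpl30 among them (lost without preadipocyte high-ratio library 1017, adjusted p = 0.0537). It called 8 of 40 genes of complexes II to V in that direction, against 1.65% of all genes. In preadipocytes 25 of the 75 and 9 of the 40 were called lower, with list medians of −0.62 and −0.16. The ribosomal median was 0.01 in progenitors. Col1a1 was −0.20 in progenitors and 0.47 in preadipocytes (difference −0.67 ± 0.13 SE, adjusted p = 0.0217). Its call was lost without preadipocyte high-ratio library 1015 (adjusted p = 0.0673) or 1017 (adjusted p = 0.065). The call was also lost with the trend on GC content and length removed (adjusted p = 0.053) and with the library number as a replicate block (adjusted p = 0.0608).

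**Figure D5:**
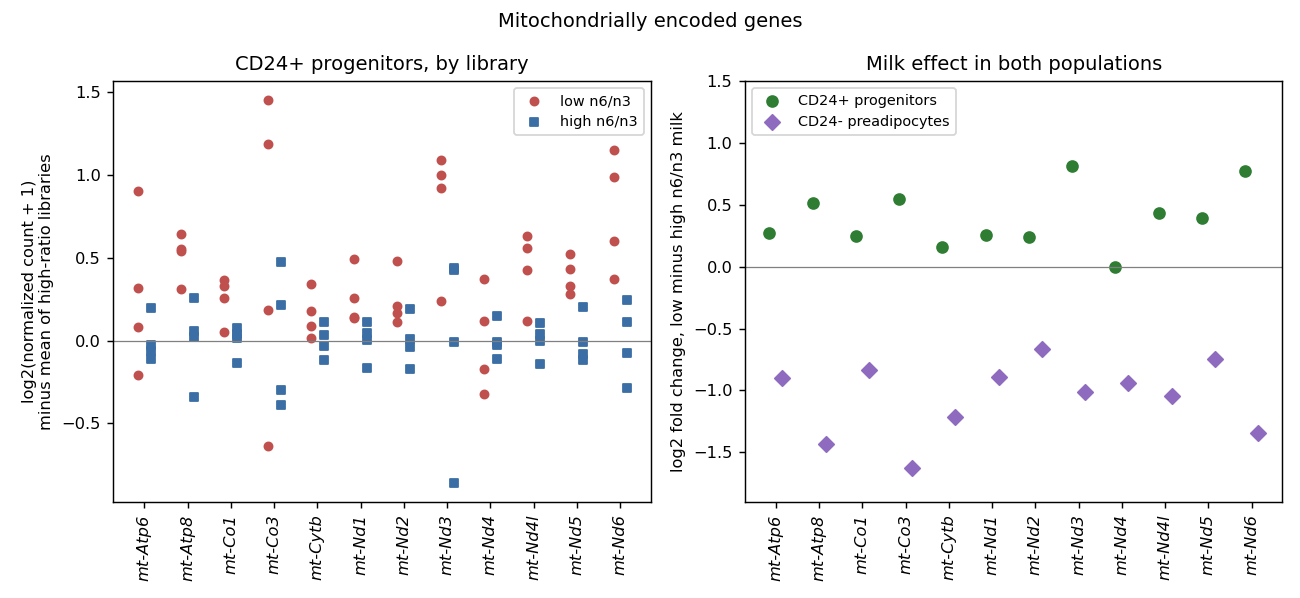
Left, 12 mitochondrially encoded genes in each progenitor library as log2(normalized count + 1) minus the mean of the high-ratio libraries (vertical axis), with low-ratio libraries as red circles and high-ratio libraries as blue squares. Right, the log2 fold change (low minus high n6/n3 milk) of the same genes in progenitors (green circles) and preadipocytes (purple diamonds), where every purple point lies below 0; mt-Co2, listed at 0 in 5 progenitor libraries, is left out.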

How the data were processed

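Per the labels' protocols, RNA of flow-sorted CD24+ and CD24- precursors was extracted with a Zymo Duet kit, and libraries were made with the Universal Plus mRNA kit of NuGEN. Salmon 0.14.2, DESeq2 1.28.1, mm10 and GRCm38 appear in the submitters' processing notes, with no order. The strand setting and the annotation release used by the authors are not given there. The authors deposited 1 table per population with variance-stabilized log2 values, scaled between the libraries of that table. A single floor value stands for 0 reads (7.70 in progenitors).

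The transformation was inverted in closed form to normalized counts for 23347 genes, of which 23322 matched GENCODE M21. The log2 ratio of the resulting group means differed from the log2 fold change in the authors' deposited table by a median of 0.000751 over 11164 genes with a mean of at least 100. Low values were near whole multiples of the worth of 1 read, which gave estimated depths. With a tolerance of 0.02 reads, 36.2% to 75.5% of values up to 20 reads were whole, so whole counts were not recovered for every value. In place of the test planned for counts, limma 3.58.1 (R 4.3.3, trend and robust) was run on log2(normalized count + 1). It used genes with a mean of at least 10 and Benjamini-Hochberg adjustment at 0.05. Fold changes are low minus high on that scale, so those of genes near 0 are understated. Of 14 symbols with 2 tested identifiers the one with the higher mean was used. There were 0 columns of unmapped samples. No pair of libraries within a milk group shared more than 0.401% of its values exactly.

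The interaction used all 15 libraries with a mean per group. The tables were scaled separately, so levels were not compared between populations. Same-numbered libraries of the populations were not treated as pairs in the main fit. Their deviations correlated between −0.06 and 0.09, which with so few libraries per group cannot decide whether they are paired. The labels do not say whether a shared number means a shared animal. The members, the 35 gene lists and the 14 marker lists were chosen with earlier results of these data known. Named genes are, in each direction, 12 protein-coding genes without provisional names, those past the threshold first and then those with the smallest p, of which 1 is not reported here. To these were added up to 3 members per list with the smallest p, up to 3 per marker list with the highest mean, and Cd24a, Pdgfra, Nr2f2, Cpt1a, Ppargc1a, Pparg, Fads1, Fads2, Xist and Ddx3y. Tfam, mt-Co1, mt-Co2, mt-Cytb, mt-Nd1, mt-Nd4l and Esam were named after their values were seen. The scripts were tested on simulated data.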

Additional observations from a re-analysis of the deposited data

Results flagged for a closer look

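In 14 of 198 sets of 4 libraries (99 named genes, 2 milks) 1 library stood apart from the other 3 by more than Dixon's critical share of the range, and chance gives about 1 in 20. On low-ratio milk these were Tep1 (1788 normalized counts) and Acot4 (210) in library 108, Gfra2 (1268), Alox12 (117) and Ifitm1 (289) in library 119, and Gpihbp1 (139) in library 133. On high-ratio milk they were Aqp7 (148), Calr (34817) and Bmp1 (32332) in library 1015, Atp5j2 (1184) in library 1017, Plin1 (124) in library 1018, and Tep1 (369), Phactr1 (1298) and Xist (5917) in library 1019. Library 1019 also had the largest estimated depth, 59.1 M reads, and the lowest sum of Y-linked genes, 569 normalized counts. The part of these features in the values of Tep1 and Phactr1 was not tested.

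In 15 of the 99 named genes the milk effect was called as different between the populations (limma interaction, adjusted p under 0.05). Of all genes tested in both populations, 350 of 15354 were called. Many of the 99 had been named for a small p in progenitors, and that difference enters the interaction. The progenitor effect lay above the preadipocyte effect, on the log2 scale, for Tep1 (1.76), Kcnq1ot1 (1.45), mt-Nd5 (1.14), mt-Atp8 (1.95), mt-Nd6 (2.12), Rpl30 (1.40) and Ogn (1.24). It lay below for Dnah2 (−4.86), Kazn (−1.38), Rgl1 (−1.05), Zc3h12b (−1.69), Stk38 (−0.88), Fads2 (−0.86), Col1a1 (−0.67) and Bmp1 (−0.61). Kcnq1ot1 was 0.58 in progenitors and −0.87 in preadipocytes, and the difference was not called with the trend on GC content and length removed (adjusted p = 0.194, with a range of 0.00697 to 0.194 over its 19 alternatives). Ogn was lower on low-ratio milk in both populations, by 0.31 in progenitors and by 1.55 in preadipocytes (log2 scale). The calls of Kcnq1ot1 (3), Ogn (9) and Bmp1 (10) were lost without the given number of single libraries out of 15, with adjusted p up to 0.0696, 0.0945 and 0.0927. With the trend on GC content and length removed, the differences of Ogn (0.60, adjusted p = 0.243) and Bmp1 (−0.40, adjusted p = 0.142) were smaller and not called, and 7 of the 15 stayed called.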

How the results depend on the processing

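Progenitors had 0 genes past the threshold under each of the 9 other settings that kept all 8 libraries. Leaving out 1 library gave 0 to 1 gene higher and 0 to 2 lower on low-ratio milk. These genes were Sbk1 (without 108), Supv3l1 and Pias4 (without 114), the provisional Gm12918 and Gm2808 (without 1015), 1700030K09Rik and Flt3l (without 1018), and Phactr1 with the provisional Gm3851 and Gm12184 (without 1019). The share of genes whose groups do not overlap was 4.15% at a mean of at least 50 and 3.94% with upper-quartile scaling. It was 6.34% to 9.11% with 1 library left out, where 7 libraries overlap less often by construction. Of 1679 values of 99 named genes under the alternatives, 1662 kept their sign without a call. Signs reversed in 16 values of 6 genes whose fold change was small or whose spread was wide. The sex-linked covariate was log2 Xist minus the mean log2 of 4 Y-linked genes. With it Pparg was 0.37 and Xist 0.25, where the value of Xist is circular because Xist is part of the covariate. With 1 library left out, the log2 fold change of Pparg ranged from −0.36 to 0.26, that of Cpt1a from −0.028 to 0.12, that of Fads1 from −0.15 to 0.088, that of Cd24a from −0.13 to 0.053 and that of Pdgfra from −0.066 to 0.050.

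The count of genes whose milk effect differs between populations was 350, with 358 at a pseudocount of 5 and 442 at a mean of at least 50. It was 148 with the trend on GC content and length removed, an alternative added after the data were seen, and 70 to 849 with 1 of the 15 libraries left out. With the library number as a replicate block it was 43, and of the 15 named genes called, 6 (Rgl1, Kcnq1ot1, mt-Nd5, mt-Atp8, mt-Nd6 and Rpl30) were called. Deviations of same-numbered libraries correlated between −0.06 and 0.09 over 7 numbers, and 2 matched their own number best. With so few libraries per group these correlations cannot decide whether same-numbered libraries are paired, and the labels do not say. Apart from what this construction shows, the cause of these shifts was not tested. Depth is an estimate, and the median standard error of 0.22 on the log2 scale limits what could be detected.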
